A study of Mus musculus with 97 samples.

Results

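Intravenous ampicillin was compared with intravenous PBS (phosphate-buffered saline) in RNA from the whole colon of mice. The 11 libraries were chosen by their labels: 6 of the group Ampicillin-IV and 5 of the group PBS-IV, out of 97 libraries in the series. All were from C57BL6/J wild-type mice aged 8 to 12 weeks, kept under specific pathogen-free conditions. Ampicillin-IV mice were dosed into a vein 2 times daily over 3 days and a last time on day 4, with 2.5 mg ampicillin in 100 µl PBS. PBS-IV mice were given 100 µl PBS by the same route and schedule, and colon was taken 4 hours after the last dose in both groups. The other 86 libraries cover PBS, ampicillin, vancomycin, neomycin, metronidazole and a mix of the 4 antibiotics, given orally (PO), into the peritoneum (IP) or intravenously. Neither the hour of the day at which tissue was taken nor the sex of the mice is given in the labels. The labels number the replicates without saying that each library came from its own mouse, so the p-values measure a spread between libraries, which may in part be technical. For single genes that spread was estimated over all 97 libraries of the series. Tests of tissue content used the 11 libraries alone.

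Ampicillin is a beta-lactam, which blocks the building of the bacterial cell wall. Given into a vein it reaches the gut through blood and bile, while an oral dose passes through the lumen directly. Much of the comparison turned on the circadian clock, which runs in nearly every cell of the colon: BMAL1 (gene Arntl) pairs with CLOCK or NPAS2 and switches on genes through a short DNA motif, the E-box. Among the genes switched on are the Per and Cry repressors, which shut the pair off again, and factors such as DBP, which acts on a further motif, the D-box. NFIL3 binds the D-box and represses, and the ROR and REV-ERB receptors compete for another motif, the ROR element, that sets Arntl and Nfil3. Genes of the E-box and D-box arms therefore peak at other hours than Arntl, Npas2 and Nfil3.

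The values were TPM, transcript abundances that are scaled per gene length and sum to the same total in each library, so sequencing depth is unknown. The libraries differed in tissue content before any comparison of treatment. Contractile content was scored as the average log2(TPM + 1) over 18 genes such as Acta2, Myh11 and Des. This smooth muscle score was 9.58 ± 0.98 (SD, n = 6) after ampicillin and 9.28 ± 1.11 (SD, n = 5) after PBS. The difference of 0.30 was within the spread (exact permutation test, two-sided, p = 0.639; adjusted over the 5 library scores, 0.682), and it was -0.0349 without Ampicillin-IV replicate 3 and -0.0321 without PBS-IV replicate 3. The highest smooth muscle scores were 11.25 in Ampicillin-IV replicate 3 and 10.64 in PBS-IV replicate 4, and the lowest was 7.95 in PBS-IV replicate 3. In the same order, Des (desmin) stood at 13062, 7820 and 784 TPM. A distal score over Hoxb13 and Hoxd10 to Hoxd13, genes that mark the posterior gut, was 3.35 ± 1.34 (SD, n = 6) against 3.00 ± 1.39 (SD, n = 5), a difference of 0.36 (exact permutation test, p = 0.649, adjusted 0.682), which was -0.0211 without PBS-IV replicate 1 and -2.8e-05 without PBS-IV replicate 3.

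The distal score hid a split that cut across treatment. Hoxd13, the most posterior gene of its cluster, was under 1 TPM in 4 libraries: 0.041 and 0 TPM in Ampicillin-IV replicates 2 and 5, and 0 and 0.046 TPM in PBS-IV replicates 1 and 3. In the other 7 libraries it ranged from 14.2 TPM in PBS-IV replicate 5 to 70.4 TPM in Ampicillin-IV replicate 6. Hoxb13 followed the same split, at no more than 1.26 TPM in those 4 libraries and 9.10 to 374.6 TPM in the rest, and Hoxd12 was listed at 0 in all 4. Hoxa13 was at 1.48 to 14.9 TPM in the 4 and 27.2 to 57.4 TPM in the others. Hoxd10 and Hoxd11 did not follow it: Hoxd10 was highest in Ampicillin-IV replicates 5 and 2, at 19.1 and 17.4 TPM. Car1, a carbonic anhydrase of colonocytes, was at 3593 to 9674 TPM in the 4 libraries and 47.8 to 2002 TPM in the others. Aqp8, another colonocyte gene, leaned the other way, at 2.65 to 134.2 TPM in the 4 and 47.8 to 1173 TPM in the others. The mean log2(TPM + 1) of the surface colonocyte list did not separate, at 8.60 to 9.03 in the 4 and 5.20 to 9.39 in the others. The labels call all 11 whole colon, and goblet (Muc2), colonocyte (Car1) and smooth muscle (Myh11) markers were present in each, but 4 of the 11 held almost none of the Hoxd13 and Hoxb13 RNA of the others.

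**Figure D1:**
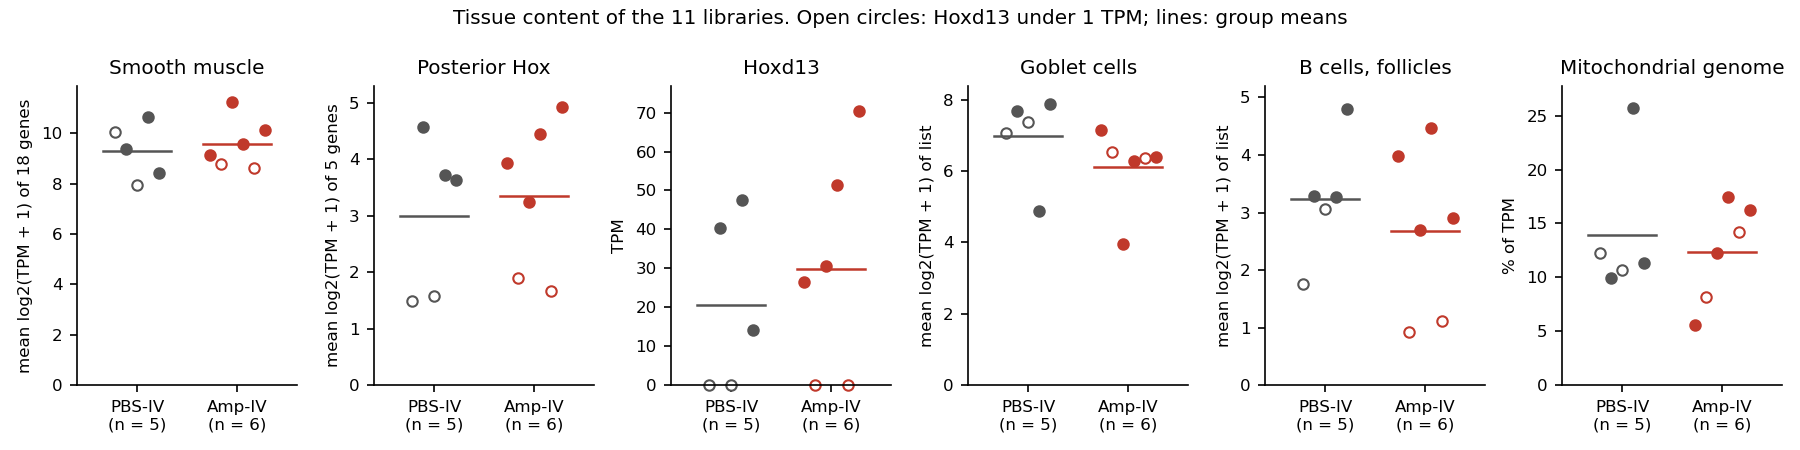
Tissue content of the 11 libraries (vertical axes from 0): smooth muscle, posterior Hox, goblet and B cell scores as mean log2(TPM + 1), Hoxd13 in TPM, and the mitochondrial genome's share of TPM in percent. Each circle is a library, lines are group means and open circles mark Hoxd13 under 1 TPM; the 2 groups overlap in every panel, and Hoxd13 is near 0 in 2 libraries of each.

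Other cell types varied with these features. The goblet score was 6.11 ± 1.11 after ampicillin and 6.98 ± 1.21 after PBS, a difference of -0.86 (exact permutation test, p = 0.268, adjusted 0.682). It was lowest in the most muscular library of each group, at 3.95 and 4.88, and without PBS-IV replicate 4 the difference was -1.39 (exact permutation test, unadjusted p = 0.0286). The B cell and follicle score was 2.68 ± 1.45 against 3.23 ± 1.08 (difference -0.56, exact permutation test, p = 0.483, adjusted 0.682). It was lowest in Ampicillin-IV replicates 2 and 5, at 0.92 and 1.11. The 13 genes of the mitochondrial genome held 12.3% ± 4.65 of TPM after ampicillin and 13.97% ± 6.60 after PBS (difference -1.65 percentage points, exact permutation test, p = 0.682, adjusted 0.682), with 25.7% in PBS-IV replicate 4, without which the difference was 1.28 percentage points (exact permutation test, p = 0.61). In bulk tissue, fewer cells of a type and less RNA per cell cannot be told apart.

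Across all genes the comparison found a small set, led by clock genes. Of 17083 genes tested, 14 passed an adjusted p under 0.05, which is 0.082%: 9 rose (0.0527%) and 5 fell (0.0293%). The median change of all genes was 0.06 on the log2 scale. At an unadjusted p under 0.05, 828 genes were higher (4.85%) and 247 lower (1.45%). The 5 that fell were Dbp, Ciart, Per3, Usp2 and Coq10b, all members of clock lists. Those lists were drawn up with earlier results of these data known, so membership is no independent evidence. The 9 that rose were the clock genes Arntl and Npas2, Leo1 from the list of clock outputs, and Atxn1l, Heca, Fam210b, Dnajc28, Ccny and the pseudogene Rps2-ps6.

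**Figure D2:**
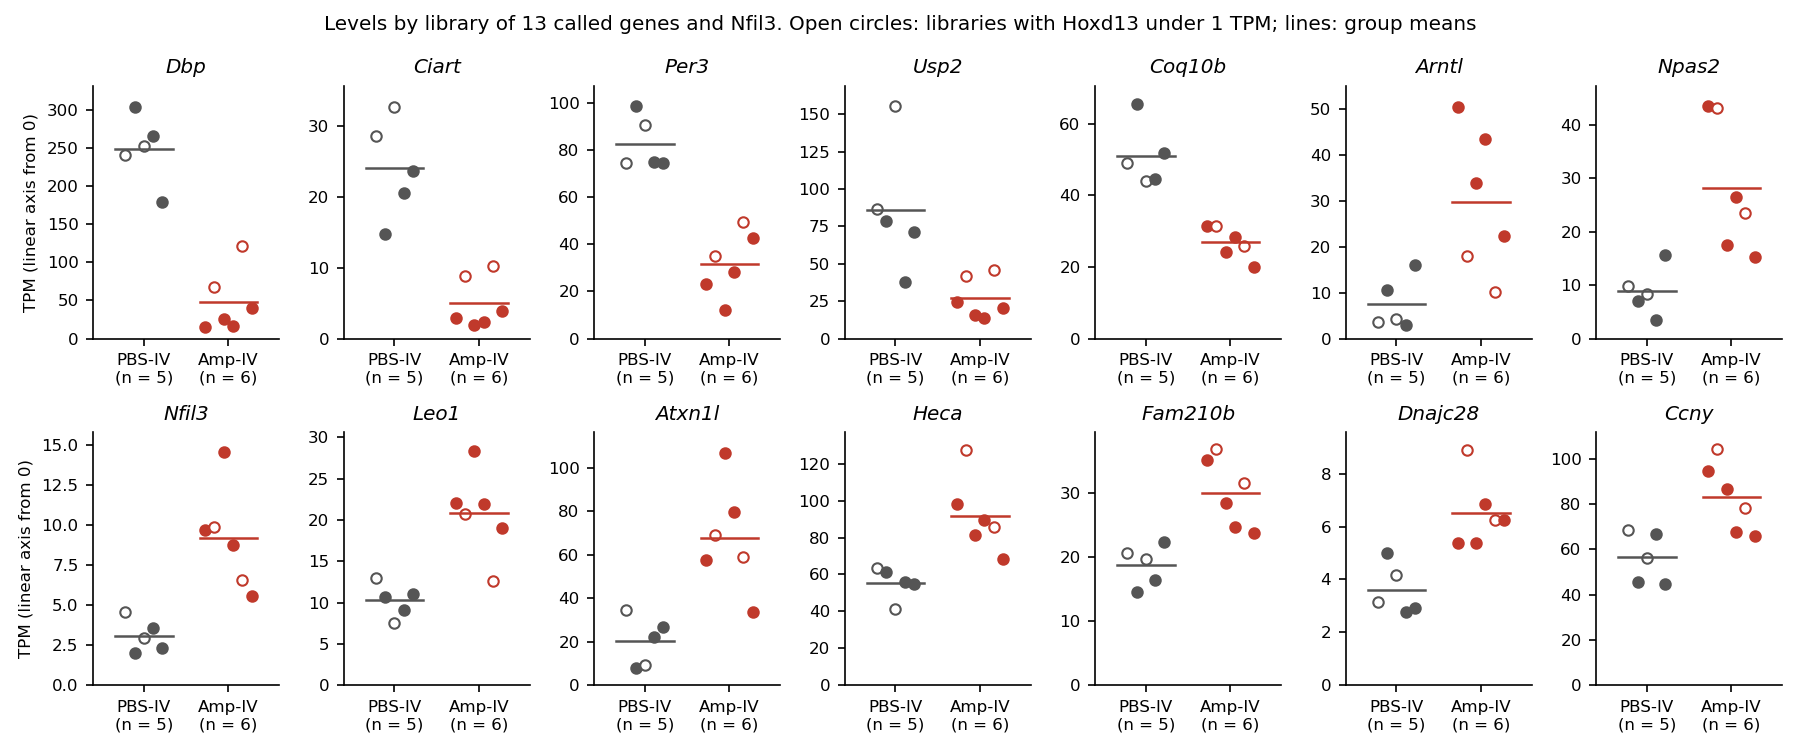
TPM in each library (linear axes from 0) of the 13 named genes called between Ampicillin-IV (n = 6) and PBS-IV (n = 5) and of Nfil3, which missed the threshold. Lines are group means and open circles mark libraries with Hoxd13 under 1 TPM; within the ampicillin group the open circles of Dbp, Ciart and Usp2 lie above the filled ones.

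The largest fall was in Dbp, the D-box activator. Its levels in the 5 PBS-IV libraries were 240.1, 303.8, 252.9, 265.4 and 178.8 TPM. In the 6 ampicillin libraries they ran from 15.4 to 120.8 TPM with a median of 32.6. Every ampicillin library lay below every PBS library, and the change was -2.74 (SE 0.47) on the log2(TPM + 1) scale with an adjusted p of 0.000693.

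Ciart, a repressor of the BMAL1 pair, stood at 28.7, 14.8, 32.8, 20.6 and 23.6 TPM after PBS. After ampicillin it ran from 1.95 to 10.3 TPM (median 3.36), again with no overlap (log2 change -2.21, SE 0.40, adjusted p = 0.0016). Per3, a period gene, was at 74.5, 98.6, 90.4, 75.0 and 74.2 TPM after PBS and at 12.0 to 49.3 TPM (median 31.5) after ampicillin. It fell by 1.47 (SE 0.30, adjusted p = 0.00935) without overlap between the groups.

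Usp2 encodes a deubiquitinase with a daily rhythm in many tissues. It was at 86.6, 78.3, 155.5, 38.0 and 71.2 TPM after PBS and 13.8 to 45.6 TPM (median 22.4) after ampicillin, with PBS-IV replicate 4 inside the ampicillin range (log2 change -1.64, SE 0.37, adjusted p = 0.0362). Coq10b, which encodes a coenzyme Q binding protein of mitochondria, had a narrow spread: 49.1, 65.6, 44.0, 44.4 and 51.9 TPM against 19.9 to 31.5 TPM (median 27.1). The groups did not overlap, and the change was -0.90 (SE 0.16, adjusted p = 0.000693).

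Promoter sequence was read for the 13 named called genes and Nfil3, from RefSeq's table for GRCm38.p6 (the authors' files were made on GRCm39), as the 250 bases before each gene's start. A promoter was listed for 13 of these 14 genes, and 3 motifs were searched on both strands: the E-box CACGTG, the D-box TTATGTAA, which reads as TTACATAA on the other strand, and the ROR element TAGGTCA, which reads as TGACCTA on the other strand. No match overlaps another in the promoters shown. An E-box of these letters is in 6.02% of 32851 listed promoters, the D-box in 0.819% and the ROR element in 2.23%. The 5 promoters that hold a match are shown, because they belong to 3 genes that fell and 2 that were higher after ampicillin. Each is written 5′ to 3′ on the gene's strand with the matches in capitals. Ciart (chr3:95882229-95882478, minus strand) holds 3 E-boxes, starting 116, 58 and 44 bases before the start site. Coq10b (chr1:55052520-55052769, plus strand) holds a D-box at 162 and an E-box at 78 bases. Per3 (chr4:151044666-151044915, minus strand) holds the D-box at 205 and 158 bases. Leo1 (chr9:75441274-75441523, plus strand) and Nfil3 (chr13:52981040-52981289, minus strand) each hold 1 ROR element, at 63 and 12 bases.
Ciart: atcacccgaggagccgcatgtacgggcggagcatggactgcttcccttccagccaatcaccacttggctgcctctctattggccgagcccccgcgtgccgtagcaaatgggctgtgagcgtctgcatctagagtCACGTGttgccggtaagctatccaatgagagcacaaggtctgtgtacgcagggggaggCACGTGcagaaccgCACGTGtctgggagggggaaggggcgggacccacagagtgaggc
Coq10b: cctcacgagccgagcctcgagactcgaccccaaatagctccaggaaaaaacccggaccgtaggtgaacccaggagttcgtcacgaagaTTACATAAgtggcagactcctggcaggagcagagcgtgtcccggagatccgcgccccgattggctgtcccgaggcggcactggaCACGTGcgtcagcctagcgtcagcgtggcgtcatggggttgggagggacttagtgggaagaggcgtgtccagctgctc
Per3: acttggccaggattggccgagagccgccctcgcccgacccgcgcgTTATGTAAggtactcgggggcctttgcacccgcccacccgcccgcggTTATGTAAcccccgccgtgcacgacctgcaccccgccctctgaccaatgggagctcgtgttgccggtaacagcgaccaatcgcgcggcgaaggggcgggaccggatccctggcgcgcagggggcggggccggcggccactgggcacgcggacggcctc
Leo1: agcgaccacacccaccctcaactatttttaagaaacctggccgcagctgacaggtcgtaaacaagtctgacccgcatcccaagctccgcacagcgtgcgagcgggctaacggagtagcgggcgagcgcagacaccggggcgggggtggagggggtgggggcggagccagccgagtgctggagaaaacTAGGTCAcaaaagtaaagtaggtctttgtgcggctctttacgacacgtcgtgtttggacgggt
Nfil3: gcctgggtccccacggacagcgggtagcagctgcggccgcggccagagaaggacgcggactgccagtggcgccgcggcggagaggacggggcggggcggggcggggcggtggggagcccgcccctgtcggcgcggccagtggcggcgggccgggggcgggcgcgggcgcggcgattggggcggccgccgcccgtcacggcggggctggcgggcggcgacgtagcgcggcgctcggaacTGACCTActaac
In these windows the E-box letters occurred in Ciart and Coq10b and the D-box letters in Coq10b and Per3, which fell. The ROR letters occurred in Leo1, which rose, and in Nfil3, which was not called. Whether a motif goes with a direction of change was not tested on these few genes. The other 8 promoters, among them those of Dbp, Usp2, Arntl and Npas2, held none of these letters in this window. A match is a string of letters and was not tested as a binding site here.

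The activator side of the clock was higher after ampicillin. Arntl was at 3.66, 10.6, 4.27, 2.85 and 15.98 TPM in the PBS-IV libraries and at 10.1 to 50.5 TPM (median 28.2) after ampicillin. The groups overlapped through Ampicillin-IV replicate 5 and PBS-IV replicates 2 and 5, and the change was 1.92 (SE 0.44, adjusted p = 0.0496). Npas2, the partner that can stand in for CLOCK, was at 9.77, 7.04, 8.39, 3.47 and 15.6 TPM against 15.3 to 43.5 TPM (median 25.0), overlapping only between the lowest ampicillin and the highest PBS library (log2 change 1.59, SE 0.36, adjusted p = 0.0362). Clock itself was not called (0.36, SE 0.16, adjusted p = 0.691).

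Leo1 encodes a subunit of the PAF1 complex, which travels with RNA polymerase II. It had the smallest adjusted p of the comparison, 0.000147, with 13.02, 10.7, 7.49, 9.05 and 11.1 TPM after PBS and 12.6 to 28.4 TPM (median 21.3) after ampicillin (log2 change 0.94, SE 0.15). Only Ampicillin-IV replicate 5, at 12.6 TPM, lay within the PBS range. Nfil3, the D-box repressor, missed the threshold at an adjusted p of 0.0582, although its groups did not overlap: 4.54, 2.001, 2.91, 3.58 and 2.32 TPM after PBS against 5.56 to 14.5 TPM (median 9.20), a log2 difference of 1.30 (SE 0.30).

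In all, 29 clock genes in 5 lists were tested. Of these 3 rose, 5 fell and 21 were not called, against 0.082% of all genes called. At an unadjusted p under 0.05, 8 were higher and 11 lower. The groups did not overlap for 5 lower members (Dbp, Ciart, Per3, Coq10b and Nr1d2), where 0.152% of all genes were lower without overlap, and for 1 higher member (Nfil3), where 0.462% of all genes were. The lists were drawn up with earlier results of these data known, so the counts are no independent evidence.

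Among the 8 repressors, Per1 and Per2 were not called, with log2 differences of -0.80 (SE 0.30, adjusted p = 0.497) and -1.68 (SE 0.66, adjusted p = 0.566). Per2 spanned 12.0 to 68.2 TPM after ampicillin and 37.9 to 135.6 TPM after PBS, so its large difference came with a large spread. Cry1 differed the other way, at 22.8 to 74.6 TPM against 6.996 to 29.1 TPM (1.36, SE 0.68, adjusted p = 0.791), while Cry2 differed by 0.18. Bhlhe41, a repressor that binds E-boxes, was at 3.06 to 10.2 TPM against 7.24 to 27.8 TPM (-1.08, SE 0.41, adjusted p = 0.521), and Bhlhe40 differed by -0.13.

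The nuclear receptors differed less. Nr1d2 (REV-ERB beta) was at 51.1 to 97.7 TPM after ampicillin and 101.1 to 136.8 TPM after PBS, with no overlap but no call (-0.73, SE 0.22, adjusted p = 0.277). Its paralogue Nr1d1 overlapped, at 67.8 to 170.2 against 137.5 to 161.3 TPM (-0.32, SE 0.20, adjusted p = 0.944). Rora differed by 0.03. Of the relatives of Dbp, Tef differed by -0.997 (SE 0.40, adjusted p = 0.598) and Hlf by -0.35 (SE 0.87). Tspan4 and Lonrf3 from the output list differed by -0.93 and 0.64, and the remaining outputs Wee1, Tsc22d3, Nampt, Klf9 and Klf10 lay between -0.43 and -0.07, none of them called.

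**Figure D3:**
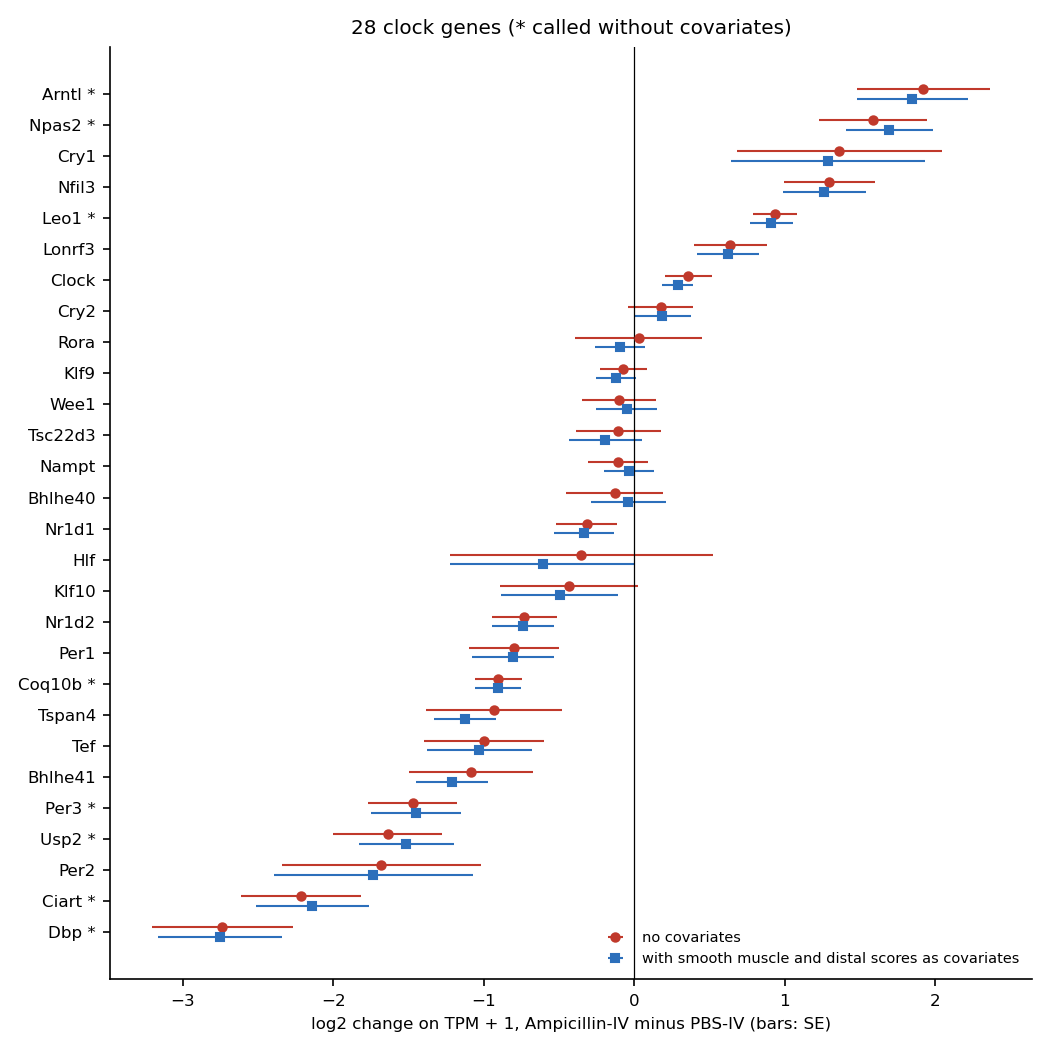
Log2 change on TPM + 1 of 28 of the 29 clock genes, Ampicillin-IV minus PBS-IV, with bars for the SE, ordered by size. Circles are from the fit without covariates and squares from the fit with the smooth muscle and distal scores; Dbp, Ciart and Per2 lie at the low end, Arntl and Npas2 at the high end, and the 2 fits give close values for each called gene.

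Some clock genes followed the Hoxd13 split within a treatment group and others did not. Those given here were picked after the values were seen, and the share of all genes that separate this way was not counted. After ampicillin, Tef, Nr1d1, Nr1d2, Per1, Clock, Klf10 and Bhlhe41 also separated, while Per3, Npas2, Nfil3 and Rora were among those that overlapped. Dbp was at 67.1 and 120.8 TPM in the 2 ampicillin libraries with Hoxd13 under 1 TPM and at 15.4 to 40.2 TPM in the other 4, while the PBS libraries did not separate (240.1 and 252.9 against 178.8 to 303.8 TPM). Ciart was at 8.81 and 10.3 TPM against 1.95 to 3.84 TPM after ampicillin, and it separated in the PBS group as well, at 28.7 and 32.8 TPM against 14.8 to 23.6 TPM. Usp2 did the same, at 41.9 and 45.6 against 13.8 to 24.6 TPM after ampicillin and 86.6 and 155.5 against 38.0 to 78.3 TPM after PBS. Arntl was at 10.1 and 17.99 TPM against 22.4 to 50.5 TPM after ampicillin and at 3.66 and 4.27 against 2.85 to 15.98 TPM after PBS, where the ranges overlapped. Between treatments, Dbp differed by -1.44 (SE 0.75, adjusted p = 1) among the libraries with Hoxd13 under 1 TPM, 2 against 2, and by -3.38 (SE 0.57, adjusted p = 0.000611) among the rest, 4 against 3. The corresponding values were -1.59 (SE 0.65) and -2.46 (SE 0.49) for Ciart, and 1.55 (SE 0.71) and 2.02 (SE 0.55) for Arntl. Direction was the same on both sides of the split for these 3 genes, and whether the sizes differ was not tested. Without the 4 Hoxd13-low libraries 4 genes were called (Dbp, Ciart, Coq10b and Leo1), and with only those 4 libraries of the 2 groups none was (466 at an unadjusted p under 0.05).

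Among the called genes outside the clock lists, Atxn1l had the largest rise. It encodes a relative of ataxin 1 that partners the repressor capicua. It was at 34.6, 7.87, 9.07, 22.2 and 26.8 TPM after PBS and at 33.6 to 106.8 TPM (median 64.0) after ampicillin, a change of 1.82 (SE 0.34, adjusted p = 0.00203). The groups met only where Ampicillin-IV replicate 6 (33.6 TPM) fell below PBS-IV replicate 1 (34.6 TPM).

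Heca, the mammalian homologue of fly headcase, did not overlap: 63.7, 61.4, 41.1, 55.6 and 54.8 TPM against 68.4 to 127.4 TPM (median 87.7; log2 change 0.71, SE 0.15, adjusted p = 0.0257). Fam210b, which encodes a mitochondrial protein, was at 20.7, 14.5, 19.7, 16.4 and 22.4 TPM against 23.8 to 36.8 TPM (median 29.9), also without overlap (0.65, SE 0.14, adjusted p = 0.0157). Dnajc28, a member of the DnaJ cochaperone family, was low in level but did not overlap, at 3.13, 4.98, 4.17, 2.77 and 2.90 TPM against 5.36 to 8.89 TPM (median 6.26; 0.71, SE 0.15, adjusted p = 0.0186). For these 3 genes every ampicillin library thus lay above every PBS library, with a change under 1 on the log2 scale. Of all genes, 0.462% were higher without overlap, and these 3 are described because they were called.

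Ccny (cyclin Y) was at 68.6, 45.8, 56.2, 67.0 and 44.7 TPM after PBS and 66.0 to 104.5 TPM (median 82.5) after ampicillin (0.55, SE 0.12, adjusted p = 0.0362). Rps2-ps6 averaged 0.746 ± 0.407 TPM (SD, n = 6) against 0.084 ± 0.100 TPM (SD, n = 5). It is a pseudogene of a ribosomal protein gene, so reads may have been shared with its parent and its value is uncertain. Just outside the threshold, after Nfil3, came Spsb3 (0.82, SE 0.19, adjusted p = 0.0628), Actr5, a subunit of the INO80 chromatin remodeller (0.83, SE 0.20, adjusted p = 0.0628), and Adamts4, an aggrecan-cleaving protease (0.83, SE 0.20, adjusted p = 0.065).

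How many genes were called differed between fits. In the main fit the spread was shared over all 18 groups. A fit of the 11 libraries alone gave the same changes with no gene called (793 at an unadjusted p under 0.05), and the adjusted p was 0.457 for Dbp, Ciart and Coq10b. Quantile normalization gave 9 genes, 4 higher and 5 lower. Leaving out 1 library gave 5 to 16 genes, with 6 without Ampicillin-IV replicate 1, 8 without Ampicillin-IV replicate 2, 5 without PBS-IV replicate 2 and 9 without PBS-IV replicate 4. Dbp, Ciart, Coq10b and Leo1 were called in each of these 11 fits. Atxn1l lost its call without PBS-IV replicate 2 (adjusted p = 0.0514), Per3 in 3 of the 11 fits (adjusted p up to 0.124), Fam210b and Dnajc28 in 4 each (up to 0.173 and 0.16), Heca and Ccny in 6 each (up to 0.208 and 0.291), Npas2 in 7 (up to 0.203), Usp2 in 8 (up to 0.269) and Arntl in 9 (up to 0.208). PBS-IV replicates 3 and 5 are among 12 libraries whose columns stand apart at the end of the deposited table. Without those 12, 5 genes were called, 3 higher and 2 lower.

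Outside the clock lists no member of any of the 41 lists of pathways and cell types passed the adjusted test, so the following are values only. Of all 17083 genes tested, 9999 were higher after ampicillin and 7084 lower. Of 25 genes of cholesterol synthesis and uptake, 19 were lower after ampicillin, 12 of them at an unadjusted p under 0.05, where 1.45% of all genes were; the median was -0.44 against 0.06 for all genes. Mvd, which decarboxylates mevalonate pyrophosphate, was at 40.7, 38.3, 37.7, 17.3 and 59.2 TPM after PBS and 10.2 to 21.9 TPM (median 15.5) after ampicillin (-1.17, SE 0.31, adjusted p = 0.152). Fdft1, squalene synthase, did not overlap, at 55.9 to 113.2 TPM against 42.8 to 50.7 TPM (-0.73, SE 0.25, adjusted p = 0.395). Nor did Mvk, mevalonate kinase, at 20.1 to 29.9 TPM against 12.4 to 18.2 TPM (-0.73, SE 0.25, adjusted p = 0.409). Of all genes, 0.152% were lower without overlap. The same list had a median of -0.49 after oral and -0.55 after intraperitoneal ampicillin, each against the PBS group of its own route.

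Of 29 genes of the type I interferon response, 25 were lower after ampicillin, against 7084 of all 17083 genes, with a median of -0.35. Of the 25, 5 were lower at an unadjusted p under 0.05, where 1.45% of all genes were. Zbp1, a sensor of Z-form nucleic acid, was at 20.4, 22.6, 45.6, 4.50 and 25.7 TPM after PBS and 2.47 to 15.6 TPM (median 4.78) after ampicillin (-1.62, SE 0.54, adjusted p = 0.384). Isg15, a ubiquitin-like protein, was at 2.86 to 38.2 against 2.17 to 16.1 TPM (-1.27, SE 0.55, adjusted p = 0.675), and Mx1, an antiviral GTPase, at 5.18 to 17.4 against 1.54 to 5.77 TPM (-1.06, SE 0.46, adjusted p = 0.68). Zbp1 and Isg15 were lowest among PBS libraries in replicate 4, the most muscular one, and highest in replicate 3, the least muscular one. With the smooth muscle and distal scores as covariates the median of the list was -0.19. Ido1, which starts tryptophan breakdown and is also induced by interferon, was at 0.61 to 11.6 TPM after PBS and 0.20 to 0.79 TPM after ampicillin (-1.75, SE 0.53, adjusted p = 0.289).

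Cell type lists were read beside tissue content. Of all 17083 genes, 9999 were higher and 7084 lower, and 0.152% were lower without overlap. Of 16 goblet genes, 15 were lower after ampicillin (median -0.89), of which Sytl2 (-0.83, SE 0.35, adjusted p = 0.673) did not overlap, at 56.3 to 124.3 TPM against 24.1 to 54.7 TPM. Of 16 B cell and follicle genes, 15 were lower (median -0.47), and of 11 genes of MHC class II presentation, 10 were (median -0.49). Of 18 smooth muscle genes, 17 were higher (median 0.25), and with the scores as covariates, which this list helped to form, the median was -0.07. All 13 mitochondrial genome genes were lower, with log2 differences from -0.31 to -0.03, and the share these genes held was highest in PBS-IV replicate 4. The part of tissue content in these list values was not tested.

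Genes that meet bacteria or antibiotics directly gave few clear values. Of 18 antimicrobial protein genes 7 were higher and 11 lower (median -0.19). Of 16 Toll-like and NOD receptors 11 were higher (median 0.17), and Tlr4, the receptor for bacterial lipopolysaccharide, was at 6.37 to 19.9 TPM after ampicillin and 6.10 to 8.999 TPM after PBS (0.74, SE 0.26, adjusted p = 0.472). Duoxa2, which matures the hydrogen peroxide producing enzyme DUOX2, was at 2.81 to 9.99 TPM against 5.40 to 61.2 TPM (-1.97, SE 0.69, adjusted p = 0.446). Among 10 genes that can carry beta-lactams or peptides, 5 were higher and 5 lower (median -0.04); the peptide carrier Slc15a2 differed by 1.24 (SE 0.74, adjusted p = 0.901). Slc34a2, a phosphate carrier, was at 13.7 to 99.0 TPM against 1.47 to 26.2 TPM (1.89, SE 0.58, adjusted p = 0.291).

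With the smooth muscle and distal scores as covariates over all 97 libraries, 131 genes were called (0.767%), 102 higher (0.597%) and 29 lower (0.17%). These include all 14 genes called without covariates. The clock lists then had 5 higher and 7 lower members of 29, those added including Nfil3 (1.26, SE 0.28, adjusted p = 0.00833), Bhlhe41 (-1.21, SE 0.24, adjusted p = 0.00313) and Tspan4 (-1.12, SE 0.21, adjusted p = 0.000963). Leaving out 1 library gave 39 genes (without Ampicillin-IV replicate 2) to 216 genes (without Ampicillin-IV replicate 6). It gave 66 and 58 without Ampicillin-IV replicates 1 and 3, and 50, 59, 82 and 80 without PBS-IV replicates 2 to 5. A fit of the 2 groups alone with these covariates called 2 genes.

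Apob, Naaladl1, Saa1 and Saa2 had the largest rises among genes named from this fit. None of them was called by limma without covariates (adjusted p = 0.488, 0.799, 0.403 and 0.488 in that order). Apob, the scaffold of lipoprotein particles, changed by 2.45 (SE 0.51, adjusted p = 0.005). Its levels were 90.7, 55.8, 91.9, 2.15 and 44.4 TPM after PBS and 31.9 to 439.6 TPM (median 185) after ampicillin, so the groups overlapped before adjustment. Naaladl1, a peptidase of the gut, changed by 2.44 (SE 0.63, adjusted p = 0.0392) and Cyp4f14, a cytochrome P450 of fatty acid metabolism, by 1.77 (SE 0.46, adjusted p = 0.0398, and 0.757 without covariates). All 3 were lowest in PBS-IV replicate 4 and highest in Ampicillin-IV replicates 2 and 5, which held little Hoxd13.

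Saa1 and Saa2 encode serum amyloid A proteins, made by epithelium and liver in inflammation and on contact with bacteria. With covariates they changed by 2.35 (SE 0.59, adjusted p = 0.0289) and 2.30 (SE 0.60, adjusted p = 0.0398). Saa1 was at 228.2, 2275, 278.2, 39.4 and 1674 TPM after PBS and at 1117 to 5453 TPM (median 1684) after ampicillin. PBS-IV replicates 2 and 5 were thus within the ampicillin range and the other 3 far below it. The 2 genes are near-identical neighbours in sequence, so reads may be divided between them. Zbtb16, a transcription factor inducible by glucocorticoids, changed by 1.37 (SE 0.34, adjusted p = 0.0289, and 0.212 without covariates), with 8.75 to 36.3 TPM after ampicillin and 1.56 to 16.4 TPM after PBS.

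Among the falls in this fit were Mvd (-1.17, SE 0.27, adjusted p = 0.0187), the only member called of the 25 cholesterol genes, and Elovl6, a fatty acid elongase (-0.65, SE 0.17, adjusted p = 0.0421). Ido1 fell by 1.56 (SE 0.41, adjusted p = 0.0457), Ccdc85b fell by 0.83 (SE 0.19, adjusted p = 0.0114) and Herpud1, a gene of endoplasmic reticulum stress, fell by 0.53 (SE 0.14, adjusted p = 0.0493). None of these falls was called without covariates. Lgals1 (galectin 1) differed by -0.44 (SE 0.56) without covariates and by -0.71 (SE 0.16, adjusted p = 0.0114) with them. Its levels were highest in the most muscular library of each group, PBS-IV replicate 4 (443.3 TPM) and Ampicillin-IV replicate 3 (375.3 TPM).

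The route of ampicillin could be compared, since each route had its own PBS group. No gene passed the adjusted test for a difference between the intravenous and the oral effect (346 at an unadjusted p under 0.05) or between the intravenous and the intraperitoneal effect (312). Dbp changed by -2.74 after intravenous, -2.50 (SE 0.44, adjusted p = 0.000949) after oral and -2.82 (SE 0.50, adjusted p = 0.00193) after intraperitoneal ampicillin. Ciart, Per3, Coq10b and Leo1 were also called by all 3 routes, where 0.0702% of all genes were called by mouth and 0.492% by the peritoneum, with Ciart at -2.27 and -2.14 and Leo1 at 0.77 and 0.84 by mouth and peritoneum. Other clock genes were less uniform. Arntl was not called by mouth (adjusted p = 0.199) or peritoneum (0.0753). Npas2 was called by the peritoneum (0.00302) but not by mouth (0.304). Nfil3, not called after the intravenous dose, was called by mouth (8.64e-05) and peritoneum (0.00776). The difference between routes for Dbp was -0.24 (SE 0.64) against oral and 0.09 (SE 0.68) against intraperitoneal, so a difference of 1 on the log2 scale either way lies within about 2 SE.

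For 4 other genes the values by route are set side by side here, and none of their differences between routes passed the adjusted test. Atxn1l differed by 0.41 (SE 0.32) after oral and 0.22 (SE 0.36) after intraperitoneal ampicillin, neither called. The intravenous effect exceeded these by 1.41 (SE 0.46, unadjusted p = 0.00324, adjusted p = 0.874) and 1.60 (SE 0.49, unadjusted p = 0.00165, adjusted p = 1). The PBS groups themselves differed in level, with Atxn1l at 20.1 ± 11.51 TPM in PBS-IV (SD, n = 5) and 43.1 TPM on average in the highest PBS group. Dnajc28 differed by -0.01 (SE 0.14) by mouth, 0.72 below the intravenous value (SE 0.21, unadjusted p = 0.0009, adjusted p = 0.874), while after intraperitoneal ampicillin it differed by 0.54 (SE 0.16, adjusted p = 0.101), 0.18 below the intravenous value (SE 0.22). Mean Dnajc28 was also lowest in PBS-IV, at 3.59 TPM against 5.004 TPM in PBS-PO and 4.36 TPM in PBS-IP. For this gene PBS-IV differed from PBS-PO by -0.39 (SE 0.15, unadjusted p = 0.0112, adjusted p = 0.994). After ampicillin Dnajc28 averaged 6.50 TPM by vein and 5.01 TPM by mouth. How much of the gap between routes lies in the PBS levels was not tested. Actr5, not called after the intravenous dose, differed by -0.16 by mouth and -0.15 by the peritoneum, 0.99 and 0.98 below its intravenous value (unadjusted p = 0.000471 and 0.00105, adjusted p = 0.874 and 1). Usp2, at -1.64 after the intravenous dose, fell by 1.77 (SE 0.35, adjusted p = 0.0056) after the oral dose and differed by -0.79 (SE 0.39, adjusted p = 0.485) after the intraperitoneal one.

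**Figure D4:**
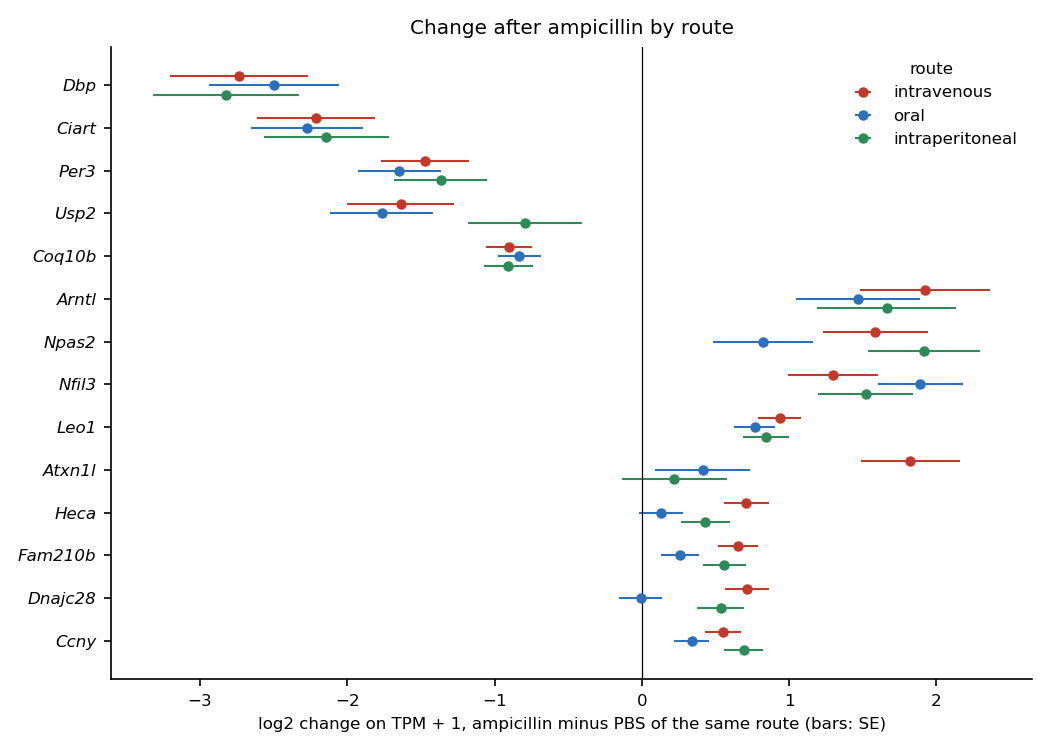
Log2 change on TPM + 1 after ampicillin by vein, mouth and peritoneum, each against the PBS group of its own route, for the 13 named called genes and Nfil3, with bars for the SE. The clock genes lie on the same side for the 3 routes; for Atxn1l the intravenous value is 1.82 and the others 0.41 and 0.22.

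The levels of the named called genes, and of the uncalled Nr1d2 and Nfil3, were set beside all 18 groups. Mean Dbp was 225.3 to 248.2 TPM in the 3 PBS groups and 34.5 (Ampicillin-IP) to 163.7 TPM (Mix-PO) in the 15 antibiotic groups, with Ampicillin-IV at 47.5 ± 40.8 TPM (SD, n = 6). All 15 antibiotic means of Dbp, Ciart, Per3, Nr1d2 and Coq10b lay below all 3 PBS means, and 13 of 15 did for Usp2. For Nfil3 all 15 lay above, from 3.496 to 18.8 TPM against 1.81 to 3.07 TPM. Npas2 and Leo1 were above in 14 of 15 and Arntl in 13. Of the genes outside the clock, the antibiotic means of Ccny lay above the PBS means in 13 of 15, Fam210b in 11, Dnajc28 in 9 and Atxn1l and Heca in 8 each, and Ampicillin-IV had the highest mean of all groups for Atxn1l (67.5 ± 24.6 TPM) and Heca (91.8 ± 19.99 TPM). The SDs of neighbouring groups overlap in these orders, and the orders were not tested. The share of all genes with such orders was not counted.

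**Figure D5:**
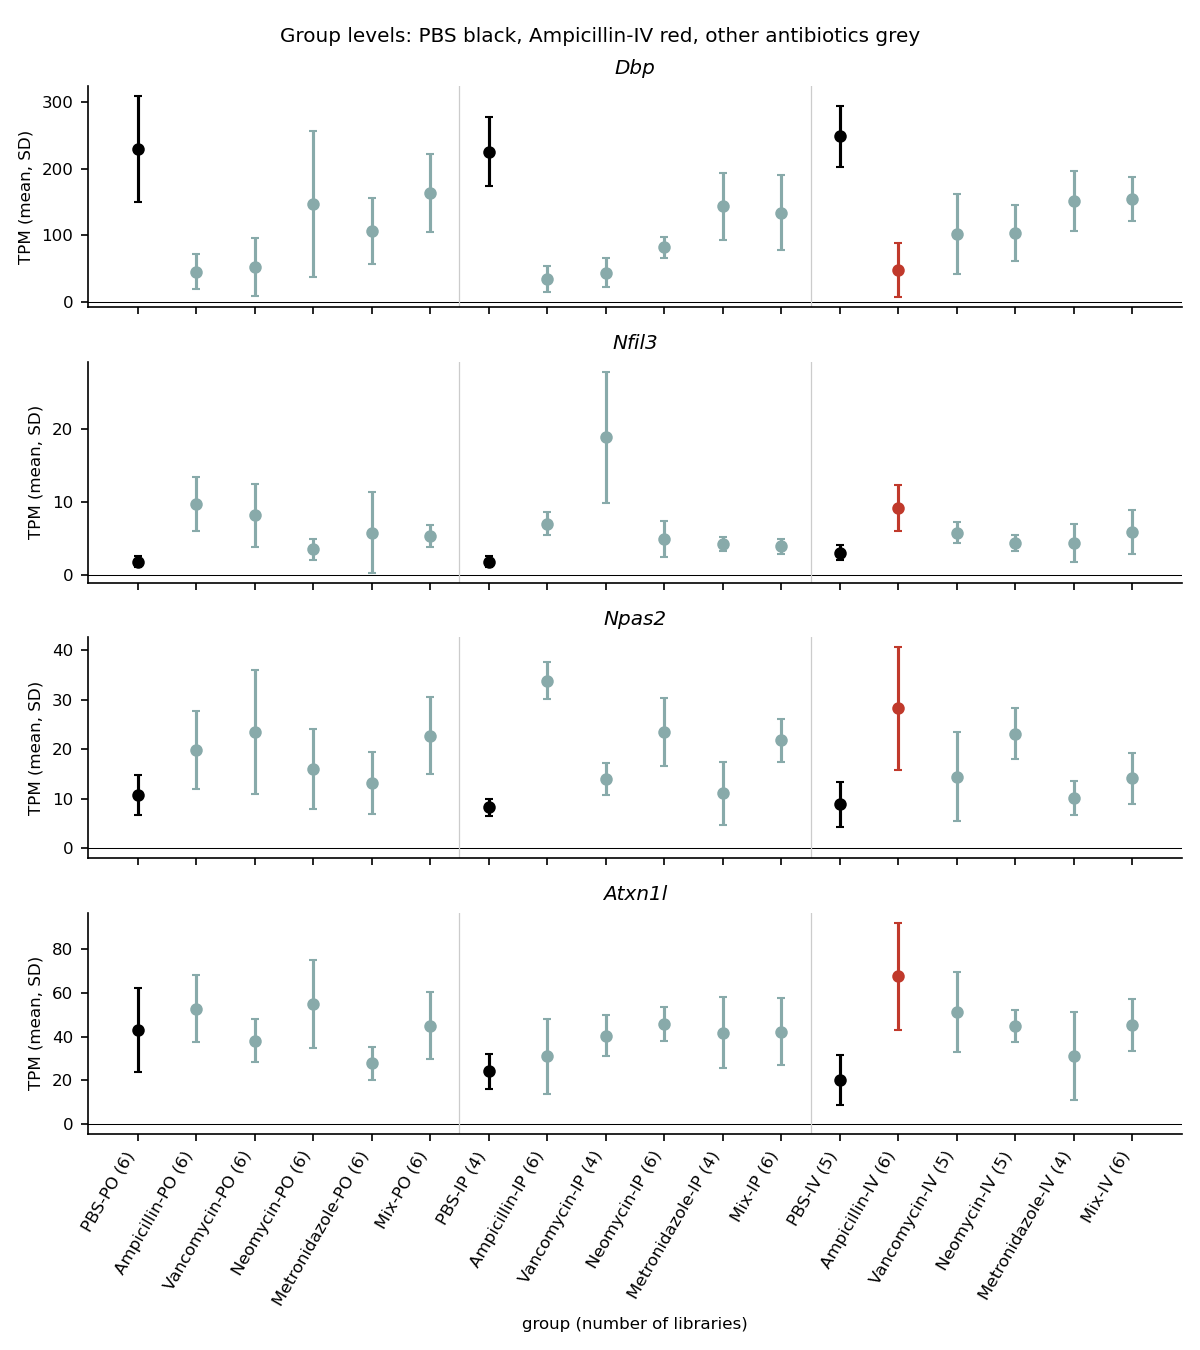
Mean TPM and SD of Dbp, Nfil3, Npas2 and Atxn1l in the 18 groups, by route, with the number of libraries in brackets. PBS groups are black and Ampicillin-IV is red; the 3 PBS means of Dbp (225.3 to 248.2 TPM) exceed all antibiotic means, and Atxn1l is highest in Ampicillin-IV.

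A direct comparison of Ampicillin-IV with Vancomycin-IV (n = 5), which does not use PBS-IV, called no gene (1617 at an unadjusted p under 0.05, smallest adjusted p 0.112). Dbp was lower after ampicillin by 1.13 on the log2 scale (a difference of -1.13, SE 0.47, adjusted p = 0.424), Coq10b differed by -0.62 (SE 0.16, adjusted p = 0.286) and Npas2 by 1.0 (SE 0.36, adjusted p = 0.389). Ciart differed by -0.31 (SE 0.40), Per3 by -0.26 (SE 0.30) and Atxn1l by 0.38 (SE 0.34). With a pseudocount of 10 in place of 1, 2 genes were called, and with the smooth muscle and distal scores as covariates 17 genes were (0.0995%), 6 higher (0.0351%) and 11 lower (0.0644%). Vancomycin-IV against PBS-IV shares the PBS libraries with the main comparison. It gave -1.90 for Ciart (SE 0.42, adjusted p = 0.035) and 1.44 for Atxn1l (SE 0.35, adjusted p = 0.0438), which were called. Dbp, at -1.61 (SE 0.49, adjusted p = 0.0982), and Leo1, at 0.53 (SE 0.15, adjusted p = 0.0801), were not.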

How the data were processed

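Colon RNA of 97 libraries was measured by the authors. Per the labels' protocols, poly(A) RNA from 1000 ng of total RNA was made into libraries with NEBNext Ultra II and read for 75 cycles, single-end; whether strand was kept is not stated, so overlapping genes on opposite strands may share reads. According to the submitters' processing notes, trimming used Trim Galore 0.6.2 with cutadapt 3.5, and quantification used Salmon against GRCm39; what the authors deposited is 1 matrix of TPM values, from which depth cannot be read.

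The deposited TPM were used as log2(TPM + 1), so a change in a gene of low level is understated. Genes with a TPM of at least 1 in at least 4 libraries were kept, 17083 of 20457. One model with 18 groups was fitted with limma 3.58.1 (trend, robust) in R 4.3.3, p-values were adjusted by Benjamini-Hochberg over all genes tested within each comparison, with 0.05 as the threshold for calling a gene. Library scores were compared by exact permutation over the 462 splits of 6 and 5, which allow no p under 0.00216. The script was tested on simulated data with the fitted group means and spread. Of 100 genes changed 2-fold 50% were called, and of 100 changed 4-fold 86%, with 5 false calls. An uncalled gene may thus have changed. The simulated noise was drawn for each gene apart, without shared tissue content, so real recovery may differ. Gene types came from GENCODE M21, matched for 20387 identifiers.

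Named genes were the called genes (predicted genes and pseudogenes only counted, Rps2-ps6 being named after its values were seen), all clock list members, up to 3 members of each other list by smallest p, up to 8 rises and 8 falls called with covariates at or above the median level, up to 5 of each other contrast, and 4 just outside the threshold; of these, the ones with values given were chosen afterwards, as were the marker genes of tissue content. The comparison and all 46 gene lists were chosen with earlier results of these data known. Alternatives tried were covariates, quantile normalization, array weights, a replicate block, another pseudocount (10), no filter on low values, fewer groups and leaving out libraries. None of the 55 pairs among the 11 libraries held identical values. Values of 2 list members are not reported here.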

Additional observations from a re-analysis of the deposited data

Results flagged for a closer look

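Of 80 sets of values tested for a single library apart from its group (library scores, called genes and clock genes, in each of the 2 groups), 5 had one, and chance alone gives about 1 in 20. The goblet score was 3.95 in Ampicillin-IV replicate 3, where the other 5 ampicillin libraries ran from 6.29 to 7.16, and 4.88 in PBS-IV replicate 4, where the other 4 ran from 7.07 to 7.86. Both are the library with the highest smooth muscle score of its group. The mitochondrial share was 25.7% in PBS-IV replicate 4 against 9.93% to 12.3% in the others. Klf9, a Krüppel-like factor induced by glucocorticoids, was at 266.5 TPM in PBS-IV replicate 2 and 151.7 to 174.3 TPM in the others. Klf10, another family member, was at 31.0 TPM in PBS-IV replicate 5 against 68.5 to 90.0 TPM.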

How the results depend on the processing

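The 14 genes called became 13 with a pseudocount of 10 or with no filter, 9 with quantile normalization (4 higher), 64 with the smooth muscle score as covariate, 26 with the distal score, 131 with both, 24 with array weights, 8 in a fit of the 6 IV groups, 0 in a fit of the 2 groups alone (793 at an unadjusted p under 0.05) and 5 without the 12 appended libraries. Settings chosen after seeing the data gave 153 with the smooth muscle score and a score of Hoxa13, Hoxb13, Hoxd12 and Hoxd13, 4 without the Hoxd13-low libraries, 0 with only those (466 at an unadjusted p under 0.05), 6 without the most muscular library of each group, and 2 in a fit of the 2 groups alone with both scores. Leaving out 1 library gave 5 to 16 genes, and with both scores as covariates 39 to 216 in place of 131. The cause of these shifts was not tested. Against Vancomycin-IV the count of 0 became 2 with a pseudocount of 10 and 17 with both scores.

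Same-numbered libraries did not deviate together: over 5 pairs the correlation of their deviations was -0.63 to -0.03, and 0 of 5 libraries correlated best with its own number. The highest correlation, 0.84, was between Ampicillin-IV replicate 3 and PBS-IV replicate 4, the most muscular library of each group. Another pair of unlike number, Ampicillin-IV replicate 1 and PBS-IV replicate 5, reached 0.75. Whether tissue content enters these deviations was not tested, so they cannot tell whether equal numbers share a day, cage or batch. A replicate block gave 15 genes (10 higher, 5 lower), and 204 with both scores.

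Leaving out 1 library moved the difference in smooth muscle score between -0.0349 and 0.64, the distal score between -0.0211 and 0.75, the goblet score between -1.39 (exact permutation p = 0.0286, without PBS-IV replicate 4) and -0.43, the B cell score between -0.93 and -0.17, and the mitochondrial share between -2.68 and 1.28 percentage points, reversing 3 of the 5. Of 61 genes named, 9 uncalled clock genes, and 0 called ones, changed sign under some setting. Rora (0.03) became -0.0051 with a pseudocount of 10, -0.0672 with quantile normalization, -0.0933 with both scores, -0.0116 with the block, -0.15 with the muscle score, -0.0523 with array weights, -0.53 without the appended libraries, -0.11 with the Hoxa13 to Hoxd13 score, -0.45 with only the Hoxd13-low libraries, -0.0882 with the block and both scores, and -0.13 with both scores in the 2 groups. Without the appended libraries Bhlhe40 became 0.24 and Nampt 0.0728. With only the Hoxd13-low libraries Bhlhe40 became 0.38, Nr1d1 0.11, Wee1 0.47 and Klf9 0.059, and without them Nampt 0.0203 and Klf10 0.12. Bhlhe40 became 0.0689 with both scores in the 2 groups, and without the most muscular libraries Hlf became 0.044 and Wee1 0.0058. Leaving out 1 library, the ranges were -0.29 to 0.25 for Rora, -0.32 to 0.092 for Bhlhe40, -0.80 to 0.22 for Hlf, -0.25 to 0.0157 for Nampt, -0.27 to 0.0615 for Tsc22d3, -0.29 to 0.0916 for Wee1 and -0.13 to 0.0676 for Klf9. Depth is unknown, so genes at low TPM, such as Rps2-ps6, have no interval.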
